A study of Homo sapiens with 16 samples.

Results

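Interferon response genes are the genes that a cell switches on when it meets type I, II or III interferon. A set of 49 of them, listed by symbol, was followed in U-251 MG cells, a long-cultured human line that was derived from a glioblastoma. All 49 were found once each among the 58243 genes of the count table, and 46 had a mean of at least 0.5 CPM (counts scaled by library size) over all 16 libraries. The members fall into sensors and transcription factors, antiviral effectors, the ISG15 conjugation system, ubiquitin and ADP-ribose enzymes, antigen-processing and guanylate-binding proteins, and other induced proteins.

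The cells had been treated for 48 h with the combination of simvastatin at 0.06 µM and irinotecan at 0.6 µM, with irinotecan alone at 0.6 µM, with simvastatin alone at 0.06 µM, or with the vehicle DMSO. Irinotecan is turned in cells into a poison of topoisomerase I, the enzyme that relaxes DNA, and simvastatin blocks an early step of cholesterol synthesis. Each group held 4 libraries of poly(A) RNA, with 24159673 to 32318888 counts in each of the 16. The labels do not say whether libraries of a group were separate cultures, so p-values may measure technical spread only. All groups are treatments of 1 cell line, and the labels do not say whether the drug groups also received DMSO.

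In the pathway, interferons bind receptors on the cell surface, whose JAK kinases activate transcription factors, among them STAT2. STAT2 works with IRF9 at the interferon-stimulated response element in the promoters of their target genes. Foreign or misplaced nucleic acid is sensed inside the cell by RIG-I (DDX58), MDA5 (IFIH1) or cGAS, which leads to interferon production, and many cancer cells keep a low level of the targets on without added interferon.

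The promoters of the members were searched for the response element. Targets of the pathway are known to carry it, so a high share of matches follows in part from what the list is. The response element was searched as GAAANNGAAA or, on the other strand, TTTCNNTTTC, in RefSeq windows on GRCh38.p14 that run from 250 bases before a gene's start to 50 after it, with overlapping matches counted separately. Of 39 members matched to a window, 25 (64.1%) held at least 1 match, as did 1255 of all 35116 windows (3.57%). Among members past the 0.5 CPM minimum, a match was in 17 of 24 windows of genes called with irinotecan and in 7 of 13 windows of genes not called, so matches were found in both. A match describes letters and does not show binding. Stretches of 120 bases are given for the 4 members with the smallest p with irinotecan among those that had a match, to show how these elements lie. Each runs 5′ to 3′ on the gene's strand, and capitals mark the matches.
IFITM3 (chr11:320833-320952, - strand): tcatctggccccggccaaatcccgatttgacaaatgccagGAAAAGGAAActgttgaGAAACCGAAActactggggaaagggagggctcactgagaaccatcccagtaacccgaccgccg
IFIT3 (chr10:89327801-89327920, + strand): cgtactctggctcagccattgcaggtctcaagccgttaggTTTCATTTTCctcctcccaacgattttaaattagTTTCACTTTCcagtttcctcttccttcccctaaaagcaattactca
IFI44 (chr1:78649719-78649838, + strand): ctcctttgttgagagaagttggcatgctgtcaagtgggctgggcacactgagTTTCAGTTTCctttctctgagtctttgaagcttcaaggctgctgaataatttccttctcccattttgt
ISG15 (chr1:1013344-1013463, + strand): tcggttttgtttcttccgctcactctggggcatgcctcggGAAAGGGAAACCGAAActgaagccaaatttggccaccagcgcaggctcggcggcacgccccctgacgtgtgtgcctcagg
IFITM3 had matches at positions -52 and -35 relative to the start, IFIT3 at -156 and -122, IFI44 at -18, and ISG15 at -113 and -107, where the pair overlap.

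Resting levels differed widely between members, as compared per length over the exons of GENCODE 29. With DMSO, LGALS3BP, which encodes a secreted galectin-binding glycoprotein, was highest at 241.8 CPM per kb. It was followed by BST2 (tetherin, which holds budding virus on the cell) at 69.5, IFI6 at 57.2, IFITM3 (which blocks virus entry) at 49.97 and ISG15, a ubiquitin-like protein, at 34.0 CPM per kb. At the other end were MX2 at 0.287 and RSAD2 (viperin) at 0.279 CPM per kb. The 3 members under the minimum were IRF7, a transcription factor that amplifies interferon production, XAF1, and the chemokine gene CXCL10. IRF7 was just under it with a mean of 0.421 CPM over the 16 libraries and RSAD2 was the lowest member above it at 1.59 CPM, while XAF1 had 0.124 CPM and CXCL10 0.0347 CPM. IRF7 had 0.228, 0.630, 0.540 and 0.366 CPM with the combination, 0.578, 0.211, 0.520 and 0.358 CPM with irinotecan, 0.416, 0.660, 0.516 and 0.524 CPM with simvastatin, and 0.288, 0.496, 0.276 and 0.129 CPM with DMSO, and all 4 groups overlapped. It was tested all the same, with a log2 fold change of 0.51 ± 0.42 for irinotecan against DMSO that was not called. No member past the minimum had a group mean under it. A gene on the opposite strand overlaps 21 of the members, and since the strand setting of the counting is not known their reads cannot be told apart.

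**Figure D1:**
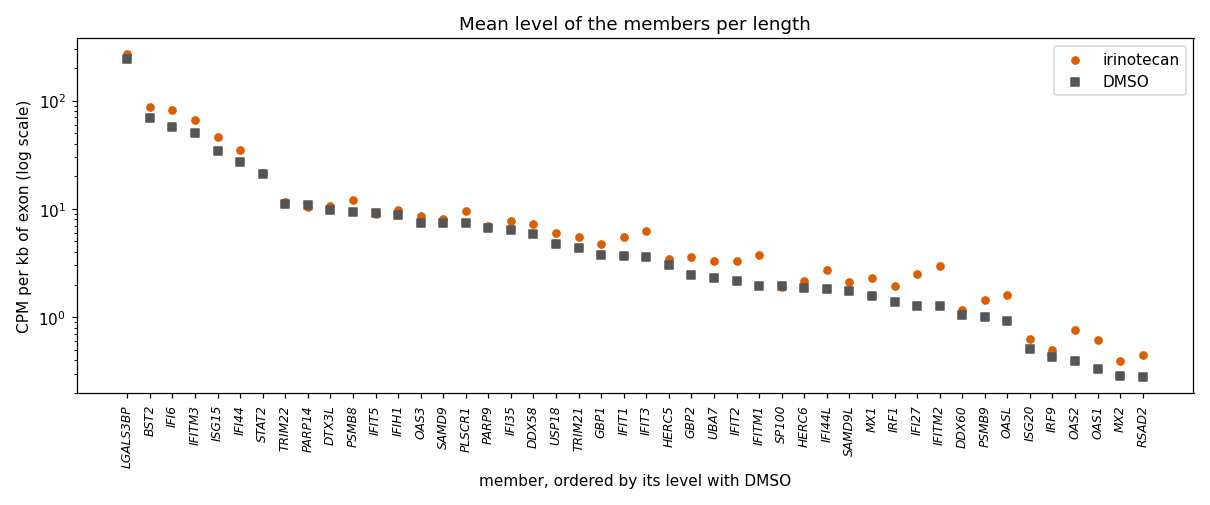
Mean level of the 46 members in CPM per kb of exon (y axis, log scale), with irinotecan (circles) and DMSO (squares), ordered from the highest to the lowest level with DMSO (x axis). LGALS3BP stands at 241.8 CPM per kb with DMSO and RSAD2 at 0.279.

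The cells carried most of the listed astrocyte and glioma markers, some neuron markers and almost none of immune cells. Summed over 10 astrocyte and glioma markers, the level was 5680 to 5839 CPM with the combination, 5806 to 5953 CPM with irinotecan, 7185 to 7295 CPM with simvastatin and 7412 to 7645 CPM with DMSO, and 9 of the 10 exceeded 0.5 CPM, with AQP4 at a mean of 0.0525 CPM. The highest of these were CD44, VIM and NES, with means of 2753, 1742.5 and 1007.4 CPM over the 16 libraries. Of 13 leukocyte and microglia markers 1 (CSF1R) exceeded 0.5 CPM, and CD3E, CD3D and TYROBP had no count in any library. Their summed level was 1.33 to 2.65 CPM with the combination, 1.68 to 2.71 CPM with irinotecan, 1.34 to 2.15 CPM with simvastatin and 1.37 to 2.19 CPM with DMSO. The summed endothelial markers were 6.25 to 6.87 CPM with the combination, 5.56 to 6.75 CPM with irinotecan, 3.74 to 4.66 CPM with simvastatin and 4.18 to 4.70 CPM with DMSO, with KDR the highest of them (mean 4.16 CPM) and PECAM1 at 0.0413 CPM. The summed neuron markers were 68.4 to 73.1 CPM with the combination, 72.1 to 79.6 CPM with irinotecan, 68.7 to 78.4 CPM with simvastatin and 62.4 to 80.9 CPM with DMSO, and 4 of the 5 exceeded 0.5 CPM. GFAP, the astrocyte filament gene, fell by 1.10 on the log2 scale with irinotecan against DMSO (edgeR adjusted p = 2.03e-18), and the part of these shifts in the results was not tested. In bulk RNA a change in the share of cells that express a gene and a change per cell cannot be told apart.

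Irinotecan against DMSO asked how the response genes move under the topoisomerase inhibitor alone. Of the 46 members 31 rose and none fell, where 12.4% of the 16647 genes tested were called higher and 11.7% lower (edgeR quasi-likelihood test, p under 0.05 after Benjamini-Hochberg adjustment across the tested genes). The log2 fold change was above 0 in 43 members, with a median of 0.35 and a range from -0.08 to 1.21, beside a median of 0.00 over all genes tested. Leaving out irinotecan replicate 3 gave the lowest count, 25 members that rose, and leaving out irinotecan replicate 2 the highest, 35.

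GBP2, a guanylate-binding GTPase, had 22.8, 21.6, 22.5 and 23.9 CPM in replicates 1 to 4 with irinotecan, against 16.3, 13.9, 15.7 and 15.5 CPM with DMSO. The groups did not overlap, and the lowest irinotecan library lay well above the highest DMSO library. The log2 fold change was 0.56 ± 0.06 (standard error, n = 4 a group, edgeR adjusted p = 4.27e-08; ENSG00000162645, GRCh38 chromosome 1, 89106132 to 89150456). GBP1, its neighbour, rose by 0.35 ± 0.06. Here and below, most members given per library were chosen by a small p, so a lack of overlap follows largely from that choice. The immunoproteasome subunit gene PSMB8 had 39.9, 35.8, 36.0 and 32.7 CPM with irinotecan, against 28.0, 28.7, 27.3 and 27.7 CPM with DMSO, again without overlap, and its log2 fold change was 0.37 ± 0.06 (edgeR adjusted p = 1.33e-05). PSMB9, a second immunoproteasome subunit beside it on chromosome 6, rose by 0.51 ± 0.15. PSMB8 and PSMB9 lie on opposite strands and overlap, and PSMB9 also overlaps TAP1, so without a stated strand setting their counts cannot be fully told apart.

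The IFITM genes, which encode membrane proteins that restrict virus entry, rose together with BST2. IFITM2 had 4.48, 4.23, 5.03 and 4.50 CPM with irinotecan, against 2.48, 1.49, 1.66 and 2.16 CPM with DMSO. Every irinotecan library was above every DMSO library, and the log2 fold change of 1.21 ± 0.15 was the highest of the members in this comparison (edgeR adjusted p = 3.2e-07). IFITM3, more abundant, had 95.6, 86.9, 90.9 and 86.4 CPM with irinotecan, against 67.4, 60.9, 69.8 and 71.3 CPM with DMSO, a log2 fold change of 0.42 ± 0.05 (edgeR adjusted p = 1.12e-07). IFITM1 rose by 0.94 ± 0.21 and BST2 by 0.33 ± 0.08. The 3 IFITM genes lie between 307631 and 327537 on chromosome 11, they are close paralogs, and IFITM1 and IFITM2 overlap on the same strand, so the split of reads among them is uncertain.

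Of the 4 IFIT genes, which encode proteins that bind viral RNA, 3 rose. IFIT3 had 16.9, 13.5, 18.7 and 17.1 CPM with irinotecan, against 9.46, 9.18, 7.77 and 11.3 CPM with DMSO, without overlap (log2 fold change 0.80 ± 0.10, edgeR adjusted p = 1.5e-06). IFIT2 had 14.1, 11.9, 14.9 and 13.3 CPM with irinotecan, against 8.21, 8.52, 8.72 and 10.2 CPM with DMSO (0.60 ± 0.09, edgeR adjusted p = 1.14e-05), and IFIT1 rose by 0.56 ± 0.17. For both IFIT3 and IFIT2 the lowest irinotecan library was replicate 2 and the highest DMSO library was replicate 4.

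IFIT5, at the end of the same cluster on chromosome 10 (89283694 to 89421001), had 35.7 ± 2.4 CPM with irinotecan and 36.4 ± 2.7 CPM with DMSO (SD, n = 4 each), and a log2 fold change of -0.03 ± 0.06. The log2 ratio of IFIT3 to IFIT5 in the same library was -1.11 ± 0.11 with irinotecan and -1.96 ± 0.21 with DMSO (SD, n = 4 each), a description with no test, since these genes were chosen after their values were seen. IFIT1, IFIT2 and IFIT3 overlap LIPA, a lysosomal lipase gene on the opposite strand, whose level was 82.4 CPM with irinotecan and 81.5 CPM with DMSO (log2 fold change 0.02 ± 0.04).

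Of the 8 OAS, Mx and related antiviral enzymes 5 rose. OASL, a relative of the oligoadenylate synthetases, rose by 0.80 ± 0.15, OAS1, which makes the second messenger of RNase L, by 0.87 ± 0.26, and OAS3 by 0.21 ± 0.06. MX1, a dynamin-like GTPase that traps viral nucleocapsids, had 18.8, 16.8, 22.5 and 21.7 CPM with irinotecan, against 12.5, 13.4, 13.0 and 15.4 CPM with DMSO (0.55 ± 0.09, edgeR adjusted p = 6.65e-05). MX2 rose by 0.45 ± 0.13. OAS2 had 3.25, 2.69, 8.64 and 4.54 CPM with irinotecan, against 1.69, 2.94, 2.13 and 3.16 CPM with DMSO. These groups overlapped, replicate 3 stood far above the other irinotecan libraries, and the log2 fold change of 0.94 ± 0.33 was not called (edgeR adjusted p = 0.0538). RSAD2 had 1.70, 1.12, 2.46 and 3.42 CPM with irinotecan, against 1.91, 1.24, 0.631 and 1.61 CPM with DMSO, with overlap and a log2 fold change of 0.65 that was not called. The exonuclease gene ISG20 had one of 0.30, also not called.

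Among sensors and transcription factors, IRF1, a factor that drives antigen-processing genes, rose most. It had 16.4, 15.1, 14.3 and 14.2 CPM with irinotecan, against 11.3, 10.7, 10.6 and 10.4 CPM with DMSO, without overlap (0.48 ± 0.08, edgeR adjusted p = 2.03e-05). The RNA sensor genes DDX58 (0.29 ± 0.07) and IFIH1 (0.17 ± 0.05) rose by less. The factor genes STAT2 and IRF9 had log2 fold changes of 0.01 ± 0.05 and 0.19 ± 0.27, and the helicase gene DDX60 one of 0.14 ± 0.11, none of them called.

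In the ISG15 system 3 of 5 genes rose. UBA7, which activates ISG15 for conjugation, had 14.0, 14.2, 14.3 and 16.99 CPM with irinotecan, against 10.1, 12.4, 9.43 and 9.93 CPM with DMSO, without overlap (0.51 ± 0.08, edgeR adjusted p = 2.97e-05; chromosome 3, 49805207 to 49813946). ISG15 itself rose by 0.45 ± 0.07 and USP18, which removes it and restrains the receptor, by 0.34 ± 0.07. HERC5, the ligase that attaches ISG15, had a log2 fold change of 0.20 and its relative HERC6 one of 0.24, and neither was called.

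Among the 5 ubiquitin and ADP-ribose enzymes 1 gene, TRIM21, a cytosolic antibody receptor, rose with irinotecan (0.35 ± 0.09). PARP9 and DTX3L, partners in a ubiquitin ligase, had log2 fold changes of 0.04 and 0.13, the ADP-ribosyltransferase gene PARP14 one of -0.08 and the antiviral ligase gene TRIM22 one of 0.07, none called. Of the 10 other induced genes 8 rose. IFI44 had 72.7, 63.1, 76.9 and 71.5 CPM with irinotecan, against 54.8, 58.1, 51.7 and 57.0 CPM with DMSO, without overlap (0.36 ± 0.05, edgeR adjusted p = 5.44e-06). IFI27 had 10.3, 7.15, 12.4 and 11.6 CPM with irinotecan, against 4.25, 4.59, 6.00 and 6.32 CPM with DMSO (0.96 ± 0.18), and IFI44L (0.58), IFI6 (0.51), the scramblase gene PLSCR1 (0.35), IFI35 (0.31), SAMD9L (0.28) and LGALS3BP (0.16) rose too. SAMD9 (0.10) and the nuclear body gene SP100 (-0.04) were not called.

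**Figure D2:**
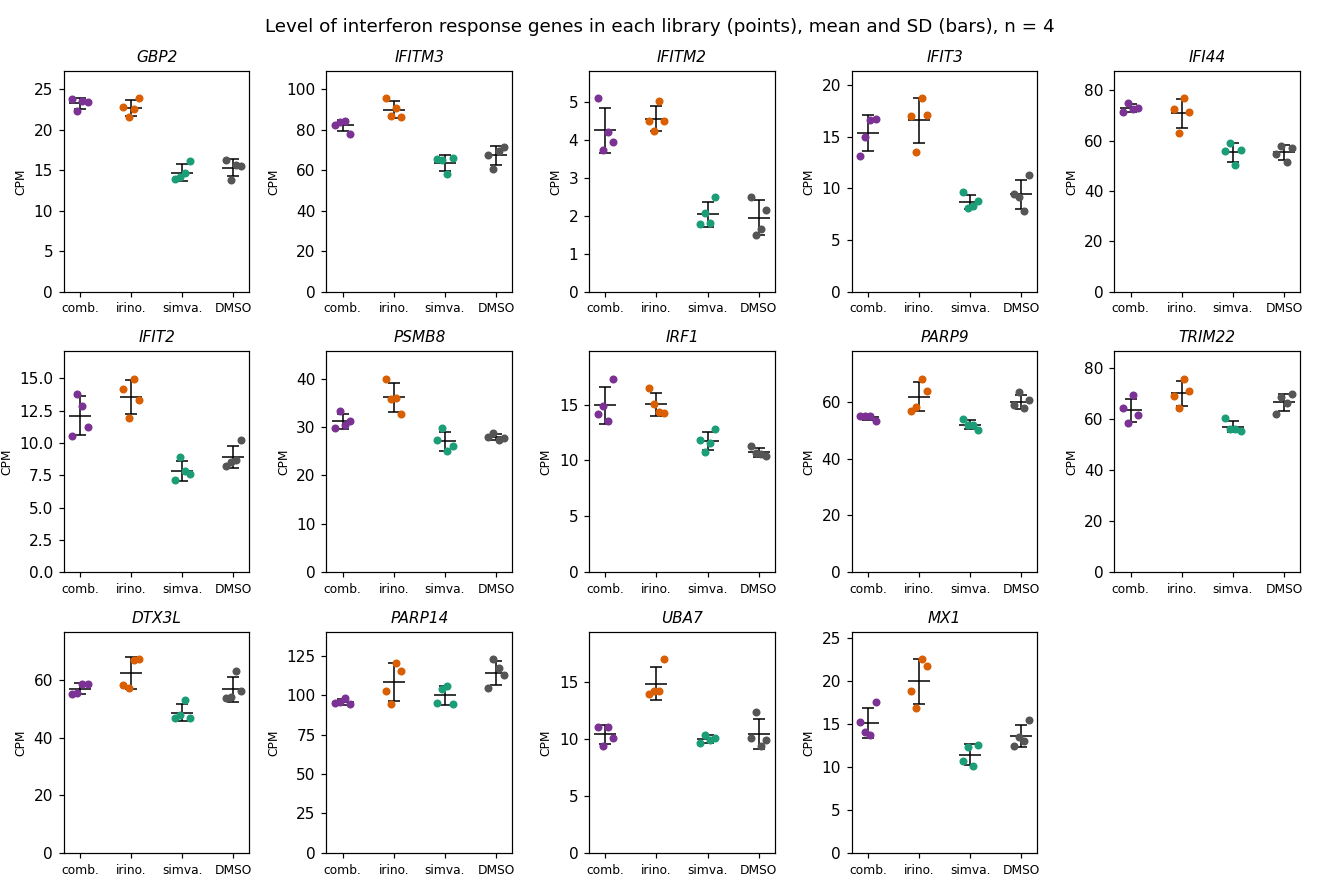
Level in CPM (y axes, from 0) of 14 members in each library (points), with the group mean and SD (bars, n = 4), for the combination, irinotecan, simvastatin and DMSO. GBP2, IFITM2 and IFIT3 are higher in all irinotecan and combination libraries than in all simvastatin and DMSO libraries, while UBA7 is high with irinotecan alone, at 14.0 to 16.99 CPM.

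The members' levels differed between the 4 irinotecan libraries. Replicate 3 was the highest of its group in 32 of 46 members (69.6%), as it was in 22.1% of all genes tested, and replicate 2 the lowest in 33 (71.7%), as it was in 24.8% of all genes. The median deviation of the members from their group mean was 0.15 log2 units in replicate 3 and -0.14 in replicate 2, and over all genes it was 0.00 in both. In the other groups no library was highest in more than 21 members (DMSO replicate 4, 45.7%, beside 22.5% of all genes tested). None was lowest in more than 18 (simvastatin replicate 3, 39.1%, beside 27.2% of all genes tested). Replicates 2 and 3 had 32318888 and 27916658 counts and mitochondrial shares of 4.05% and 3.19%, with 24375152 and 26968695 counts and 3.84% and 3.97% in replicates 4 and 1, and the part of depth or mitochondrial RNA in this spread was not tested. Without both libraries, a fit chosen after the data were seen, 28 members rose and none fell.

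**Figure D3:**
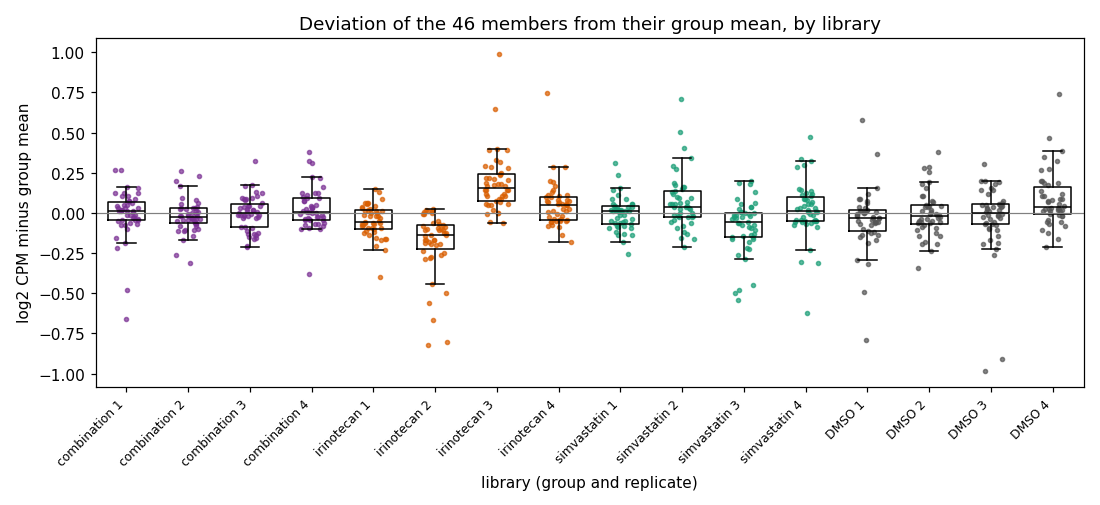
Deviation of each of the 46 members (points) from its group mean in log2 CPM (y axis), by library (x axis); boxes show the quartiles and the median, whiskers reach the last point within 1.5 box lengths. The median lies at 0.15 in irinotecan replicate 3 and at -0.14 in irinotecan replicate 2.

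The combination against simvastatin asked for the same irinotecan effect in cells that also had the statin. Its groups hold none of the libraries above, but the spread was estimated from all 16 libraries together. Of 46 members 28 rose and none fell, where 13.9% of all genes tested were called higher and 11.7% lower, and the median log2 fold change was 0.29. With 1 library left out 23 to 26 rose. Of the 31 members called higher with irinotecan against DMSO, 24 were called higher here too, which is 77.4% of the first list and 85.7% of the second, beside 73.4% and 65.7% over all genes. The log2 fold changes of both comparisons were above 0 in 42 of 46 members, as in 37.6% of all genes.

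GBP2 had 23.8, 22.3, 23.6 and 23.5 CPM with the combination, against 13.9, 14.1, 14.6 and 16.2 CPM with simvastatin (0.66 ± 0.06, edgeR adjusted p = 2.59e-09). IFITM3 had 82.6, 83.9, 84.2 and 78.1 CPM with the combination, against 65.4, 65.3, 58.0 and 65.99 CPM with simvastatin (0.37 ± 0.05, edgeR adjusted p = 1.24e-06). IFIT3 had 13.1, 15.0, 16.6 and 16.7 CPM with the combination, against 9.60, 8.12, 8.25 and 8.82 CPM with simvastatin (0.82 ± 0.11, edgeR adjusted p = 2.06e-06). None of these 3 genes overlapped between the groups, and neither did IFI44, at 71.5 to 75.0 CPM with the combination and 50.3 to 59.3 CPM with simvastatin (0.40 ± 0.05). GBP2, IFITM3, IFIT3 and IFI44 were chosen by their small p here, so this separation follows largely from the choice. The log2 ratio of IFIT3 to IFIT5 was -1.22 ± 0.19 with the combination and -1.98 ± 0.14 with simvastatin (SD, n = 4 each, no test). Members called here and not with irinotecan against DMSO were DTX3L (0.23), SP100 (0.20), TRIM22 (0.15) and HERC6 (0.26), but the differences between the comparisons were not called (interaction term). DTX3L was also called with irinotecan against DMSO when DMSO replicate 3 or irinotecan replicate 2 was left out (edgeR adjusted p = 0.016 and 0.03), with library sizes alone as the scaling (edgeR adjusted p = 0.00634) and without a filter on low counts (edgeR adjusted p = 0.035). TRIM22 was called there with library sizes alone (edgeR adjusted p = 0.0328). With that scaling the median log2 fold change of all genes tested was itself 0.075 for irinotecan against DMSO. TRIM22 lost its call without simvastatin replicate 2, 3 or 4 or combination replicate 1 or 3 (edgeR adjusted p = 0.0597 to 0.171), and PSMB8 (0.20) without combination replicate 2 (edgeR adjusted p = 0.056).

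**Figure D4:**
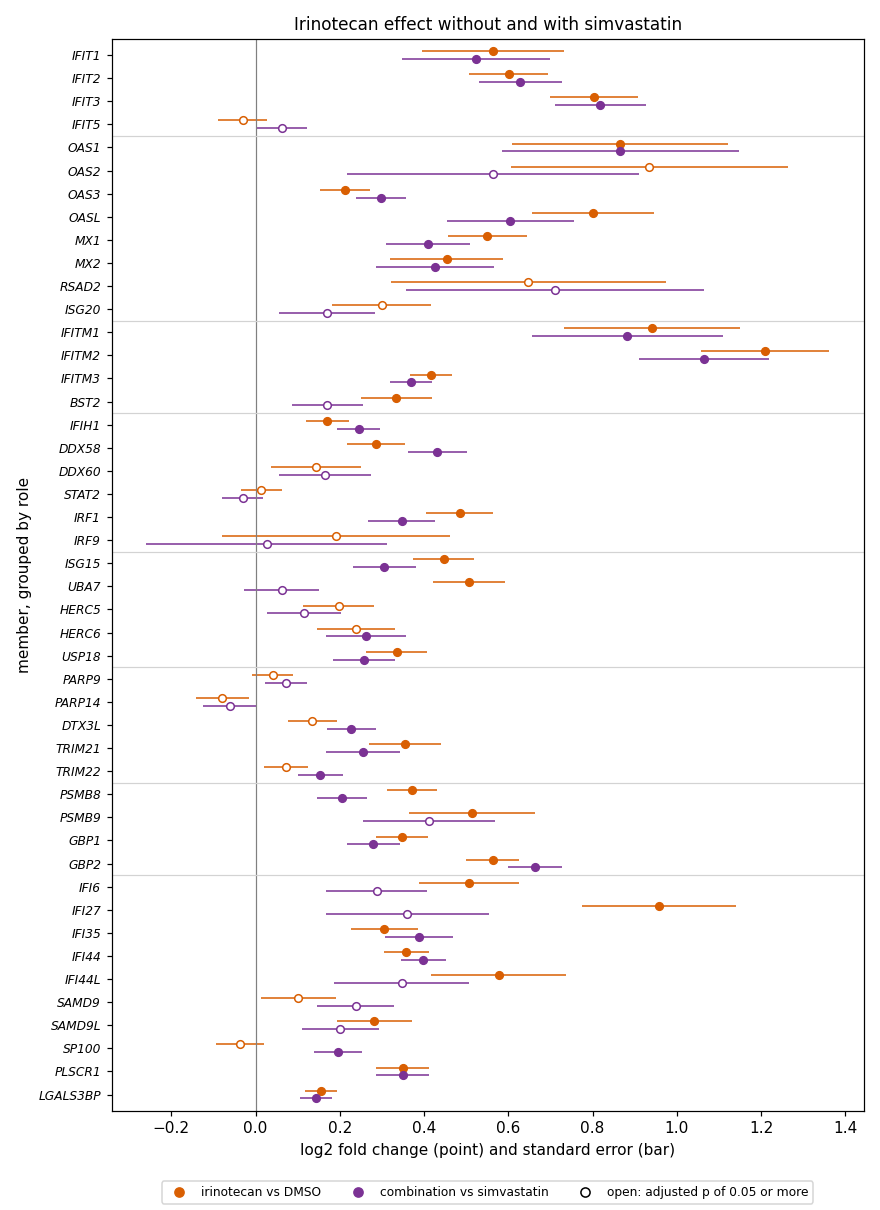
Log2 fold change (x axis, points) with its standard error (bars) of the 46 members, grouped by role (y axis). Shown are irinotecan vs DMSO and combination vs simvastatin, whose groups share no library but whose spread was estimated together. Filled points have an adjusted p under 0.05. Filled points number 31 and 28, all to the right of 0.

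Simvastatin against DMSO asked whether the statin alone moves these genes. Of 46 members none rose and 3 fell, where 3.89% of all genes tested were called higher and 2.11% lower. The log2 fold change was above 0 in 10 members, with a median of -0.08 beside -0.01 over all genes. The 3 were all of the ubiquitin and ADP-ribose group. PARP9 had 53.9, 51.9, 51.8 and 50.2 CPM with simvastatin, against 58.7, 63.3, 57.6 and 60.5 CPM with DMSO, without overlap (-0.21 ± 0.05, edgeR adjusted p = 0.00716). DTX3L, its partner, had 47.1, 47.9, 53.3 and 46.9 CPM with simvastatin, against 54.0, 54.4, 63.3 and 56.2 CPM with DMSO, where only simvastatin replicate 3 came near the DMSO libraries (-0.22 ± 0.06, edgeR adjusted p = 0.018). TRIM22 had 60.4, 56.3, 56.2 and 55.3 CPM with simvastatin, against 62.0, 68.5, 66.1 and 69.6 CPM with DMSO, also without overlap (-0.22 ± 0.05, edgeR adjusted p = 0.0076). It overlaps TRIM5, a retrovirus restriction gene on the opposite strand, which averaged 40.9 CPM with simvastatin and 40.7 CPM with DMSO and was not called. TRIM5 was called higher with irinotecan against DMSO (0.15, edgeR adjusted p = 0.0318) and with the combination against DMSO (0.15, edgeR adjusted p = 0.031). It was also called higher with the combination against simvastatin (0.14, edgeR adjusted p = 0.0418), as TRIM22 was, and the part of TRIM5 reads in TRIM22 was not tested.

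PARP9 and DTX3L lie head to head on chromosome 3 (122527924 to 122564577 and 122564238 to 122575203) and overlap at their starts, with PARP14 next to them. PARP14 had 94.99, 104, 106 and 94.7 CPM with simvastatin, against 105, 123, 117 and 113 CPM with DMSO, with overlap and a log2 fold change of -0.19 that was not called (edgeR adjusted p = 0.084). DESeq2 called it (adjusted p = 0.0339), as did edgeR without DMSO replicate 1 (adjusted p = 0.0352). DTX3L lost its call without DMSO replicate 3 or simvastatin replicate 1, 2 or 4 (edgeR adjusted p = 0.0558 to 0.0962). No gene of the IFIT, the OAS and Mx, or the IFITM and tetherin groups was called. Most of them had values under 0, among them MX1 (-0.26 ± 0.10) and IFIT1 (-0.24). MX1 was called lower without a filter on low counts (edgeR adjusted p = 0.0458). The log2 fold change was above 0 in 0 of 4 IFIT genes and in 1 of 8 OAS, Mx and related genes (ISG20, 0.34). It was above 0 in 2 of 4 IFITM and tetherin genes. The lowest values were -0.38 in the OAS and Mx group and -0.32 in the IFITM and tetherin group.

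The combination against irinotecan asked what the statin adds to irinotecan, in groups that the simvastatin comparison did not hold. The spread was again estimated from all 16 libraries together. Of 46 members none rose and 4 fell, where 4.45% of all genes tested were called higher and 1.5% lower, and the log2 fold change was above 0 in 7 members, with a median of -0.13. UBA7 had 11.1, 9.41, 11.1 and 10.1 CPM with the combination, against 14.0, 14.2, 14.3 and 16.99 CPM with irinotecan, a clear separation (-0.51 ± 0.08, edgeR adjusted p = 0.00015). MX1 had 15.2, 14.0, 13.8 and 17.6 CPM with the combination, against 18.8, 16.8, 22.5 and 21.7 CPM with irinotecan, where combination replicate 4 overlapped irinotecan replicate 2 (-0.40 ± 0.09, edgeR adjusted p = 0.00849). PSMB8 had 29.7, 33.2, 30.4 and 31.3 CPM with the combination, against 39.9, 35.8, 36.0 and 32.7 CPM with irinotecan, with overlap (-0.21 ± 0.06, edgeR adjusted p = 0.0233). PARP9 had 55.1, 54.8, 55.1 and 53.3 CPM with the combination, against 56.9, 58.3, 68.0 and 63.9 CPM with irinotecan, without overlap (-0.18 ± 0.05, edgeR adjusted p = 0.0253).

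The number of members that fell was 8 without irinotecan replicate 2 and 2 without irinotecan replicate 3 or without combination replicate 1, 3 or 4. UBA7 kept its call in each of these fits. MX1 lost it without combination replicate 3 (edgeR adjusted p = 0.0504), PSMB8 without irinotecan replicate 1 or 3 or combination replicate 1, 3 or 4 (edgeR adjusted p = 0.054 to 0.144), and PARP9 without irinotecan replicate 3 or 4 or any 1 of the combination libraries (edgeR adjusted p = 0.0575 to 0.159). IFI27, at 6.96 ± 0.55 CPM with the combination and 10.4 ± 2.3 CPM with irinotecan (SD, n = 4 each), had a log2 fold change of -0.57 ± 0.18 that was not called (edgeR adjusted p = 0.0753). PARP9 was the 1 member called lower in both comparisons of the statin, which is 33.3% of the 3 and 25% of the 4, beside 27% and 38.2% for lower calls over all genes. Both log2 fold changes were under 0 in 31 of 46 members, as in 33.7% of all genes.

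**Figure D5:**
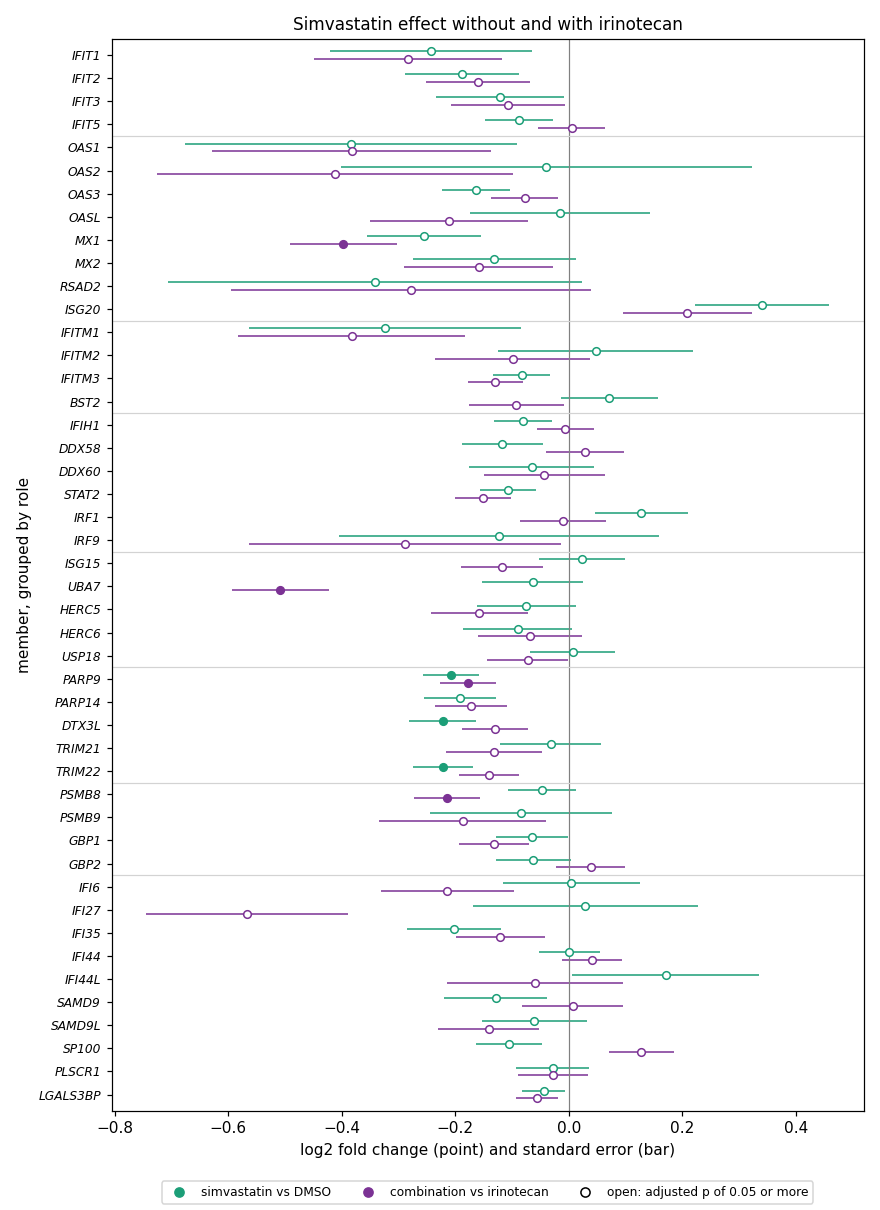
Log2 fold change (x axis, points) with its standard error (bars) of the 46 members, grouped by role (y axis). Shown are simvastatin vs DMSO and combination vs irinotecan, whose groups share no library but whose spread was estimated together. Filled points have an adjusted p under 0.05. Most points lie left of 0, and the filled ones number 3 and 4.

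The combination against DMSO gave the net state of cells with both drugs. It shares its DMSO libraries with the comparisons of each drug alone. Of 46 members 19 rose and 3 fell, where 15.1% of all genes tested were called higher and 13% lower, with a median log2 fold change of 0.25. GBP2 (0.60 ± 0.06, edgeR adjusted p = 1.21e-08), IFI44 (0.40 ± 0.05, edgeR adjusted p = 9.12e-07), IFITM2 (1.11 ± 0.15, edgeR adjusted p = 1.6e-06) and IFIT3 (0.70 ± 0.11, edgeR adjusted p = 1.4e-05) had the smallest p. IRF1 (0.47 ± 0.08), IFITM3 (0.29 ± 0.05), PLSCR1 (0.32), IFIT2 (0.44), DDX58 (0.31), ISG20 (0.51), ISG15 (0.33) and OASL (0.59) rose as well, and so did USP18, GBP1, IFIH1, IFI44L, BST2, LGALS3BP and PSMB8, by 0.10 to 0.52. PARP14, at 95.8 ± 1.9 CPM with the combination and 114 ± 8 CPM with DMSO (SD, n = 4 each), fell by 0.25 ± 0.06 on the log2 scale (edgeR adjusted p = 0.00469), and STAT2 (-0.14 ± 0.05) and PARP9 (-0.14 ± 0.05) fell by less. UBA7 was at its DMSO level, with 10.4 ± 0.8 CPM with the combination and 10.5 ± 1.3 CPM with DMSO (SD, n = 4 each, edgeR adjusted p = 0.991). With 1 library left out, PARP9 was not called in 6 of the 8 fits (without DMSO replicate 2 or 4 or any combination library, edgeR adjusted p = 0.0592 to 0.126), and PSMB8 (0.16) in 7 of the 8 (all but the one without combination replicate 1, edgeR adjusted p = 0.0585 to 0.168).

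The interaction asked whether the combination departed from the sum of both single-drug effects on the log2 scale. No member was called, where 0% of all genes tested were called higher and 0.012% lower. DESeq2 called no member either. Of the 46 members 3 had an unadjusted p under 0.05, beside 1000 of all 16647 genes tested, which is a similar share. UBA7 came nearest, with an interaction of -0.44 ± 0.12 (unadjusted p = 0.00109, edgeR adjusted p = 0.605). SP100 had 0.23 ± 0.08 and IFI27 -0.60 ± 0.27. An adjusted p over the threshold does not show that the drugs added up in these genes.

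Upstream genes of the pathway were taken from lists written with the members. Interferon genes themselves were hardly detected: of 21 ligand genes none reached 0.5 CPM and 11 had no count in any library, among them IFNG. No count in a group's 4 libraries allows a level of up to 0.0269 to 0.0293 CPM (3 counts over the group, counting error only). IFNB1, the interferon made first by most cells, had 5 counts in all with the combination, 8 with irinotecan, 1 with simvastatin and 1 with DMSO, too few for a fold change. IFNE, the most abundant, had 75 counts over the 16 libraries. Of the 9 receptor and kinase genes, IFNLR1, the specific chain of the type III interferon receptor, rose with irinotecan (0.55, edgeR adjusted p = 1.96e-05), and none of the other 8 was called. This 1 of 9 is near the 12.4% of all genes tested that were called higher. IFNAR1 had a log2 fold change of 0.01, JAK1 0.07 and TYK2 0.10.

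Of 13 further nucleic acid sensor and adaptor genes tested, 8 rose with irinotecan and none fell, beside 12.4% of all genes tested called higher and 11.7% lower. SAMHD1, which breaks down deoxynucleotides, rose by 0.48, the adaptor gene TICAM1 by 0.27, the kinase gene IKBKE by 0.52 and the double-stranded RNA receptor gene TLR3 by 0.55. TMEM173 (STING) had 0.11 and MAVS 0.05, neither called, and MB21D1 (cGAS) was under the filter at a mean of 0.177 CPM. Among 6 negative regulators SOCS3, which shuts off JAK kinases, fell (-0.38, edgeR adjusted p = 1.13e-06) and none rose, and 1 of 6 is near the 11.7% of all genes called lower. Of 45 other interferon-stimulated genes 26 rose and 3 fell with irinotecan, against the same 12.4% and 11.7%. TRIM38 (0.44), SLFN5 (0.45) and APOL6 (0.48) rose, while GBP5 (-0.35), the chemokine gene CCL2 (-0.25) and SLFN11 (-0.15) fell.

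In the comparisons of irinotecan given with the statin, 24 of the 45 rose and 3 fell with the combination against simvastatin, where 13.9% of all genes were called higher and 11.7% lower. With the combination against DMSO 22 rose and 2 fell, where 15.1% were called higher and 13% lower. Of the sensor genes 8 rose with the combination against simvastatin and 6 with the combination against DMSO, and none fell. Of the 9 receptor and kinase genes IFNLR1 (0.55), JAK1 (0.13) and the type I receptor chain gene IFNAR2 (0.28) rose with the combination against simvastatin, and IFNLR1 (0.50) and JAK1 (0.14) rose with the combination against DMSO. These 3 of 9 and 2 of 9 stand beside 13.9% and 15.1% of all genes called higher. Among the 6 negative regulators SOCS3 fell in both (-0.30 against simvastatin and -0.36 against DMSO), while the phosphatase gene PTPN11 (0.12) and PIAS1 (0.14) rose against simvastatin. Of the same 45 genes 5 rose and 1 fell with simvastatin against DMSO, beside 3.89% of all genes called higher and 2.11% lower, with SLFN5 at 0.64 (edgeR adjusted p = 1.47e-08), GBP5 at 0.25, CD274 (PD-L1) at 0.22 and PML at -0.15. SLFN5 averaged 44.2 CPM with the combination, 31.1 CPM with irinotecan, 35.4 CPM with simvastatin and 22.7 CPM with DMSO. With the combination against irinotecan, where 4.45% of all genes were called higher and 1.5% lower, SLFN5 (0.51), GBP5 (0.36) and CD274 (0.26) rose and NLRC5, a regulator of HLA class I genes, fell (-0.32). Among the receptor, sensor and negative regulator lists no gene was called with simvastatin against DMSO or with the combination against irinotecan, and STAT3 fell in both (-0.19 and -0.14).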

How the data were processed

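The values deposited by the authors are raw counts, 1 whole number for each gene in each library. Per the submitters' processing notes FastQC, STAR 2.7.1 and DESeq2 were used with GRCh38; the sources used here do not name the annotation, the counting tool or its strand option. The libraries without a replicate number in their title were called replicate 4. Libraries of a group differed by more than sampling noise (chi-squared per degree of freedom 2.59 to 15.4).

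Tests across genes ran in edgeR 4.0.16 under R 4.3.3. filterByExpr (minimum count 10, minimum total 15) kept 16647 genes, libraries were scaled by TMM, and quasi-likelihood models with robust dispersion and 1 coefficient for each group used all 16 libraries, with two-sided tests over all genes. Standard errors come from the fold change and its F statistic. CPM of single genes use TMM-scaled library sizes, and summed markers use library totals. The filter at 0.5 CPM applied to the mean over all 16 libraries. Lengths and overlaps come from GENCODE 29 on GRCh38. The pipeline was tested on simulated data. Figures used Python 3.11.15 and matplotlib 3.10.9.

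Values per library are given for members with a mean of at least 2 CPM that had the 8 smallest p with irinotecan against DMSO or the 4 smallest in each other comparison, and for those beside the minimum; OAS2, IFI27, UBA7 and MX1 were added with irinotecan against DMSO, and other values, after they were seen. From the other lists up to 4 called genes with the smallest p were named by rule, and further ones were chosen after seeing them. Members and lists were chosen with earlier results of these data known. Alternatives were DESeq2 1.42.0, other scalings, filters, thresholds and sample sets, and leaving out each library.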

Additional observations from a re-analysis of the deposited data

Results flagged for a closer look

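Among 68 sets of 4 libraries, for the 16 members chosen by rule for values per library, IRF7 and RSAD2 included, and for the summed level of the members, 4 had 1 library far from the other 3 by Dixon's test, where chance gives about 1 in 20. IFITM3 was low in simvastatin replicate 3, at 58.0 CPM with the nearest other library at 65.3 CPM. DTX3L was high in the same library, at 53.3 CPM with the nearest at 47.9 CPM. UBA7 was high in irinotecan replicate 4, at 16.99 CPM with the next library at 14.3 CPM, and PARP9 was low in combination replicate 4, at 53.3 CPM with the nearest at 54.8 CPM.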

How the results depend on the processing

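Counts of called members held within 1.5 times in 110 of 124 alternative results. These include the interaction, where 0 members in both fits count as held. Against a minimum fold change of 1.2 the counts fell to 12 for irinotecan against DMSO, 6 for the combination against simvastatin, 5 for the combination against DMSO, and 0 for simvastatin against DMSO and for the combination against irinotecan. At an adjusted p under 0.01 the combination against irinotecan had 2. Without a filter on low counts it had 8, and simvastatin against DMSO had 6. In the 12 numbered libraries without a block, simvastatin against DMSO had 0, with PARP9, DTX3L and TRIM22 not called (edgeR adjusted p = 0.101, 0.126 and 0.155). DTX3L and TRIM22 were not called there with the combination against simvastatin either (edgeR adjusted p = 0.0511 and 0.0983). With 1 library left out, the counts were 25 to 35 for irinotecan against DMSO, 23 to 26 for the combination against simvastatin, 17 to 23 for the combination against DMSO, 2 to 8 for the combination against irinotecan, 2 to 4 for simvastatin against DMSO and 0 for the interaction. Same-numbered libraries deviated together (r over 0.1) in 2 of 18 pairs, so the numbers were not taken as pairs. With the replicate number as a block the 12 libraries gave 28, 26, 18, 4, 4 and 0 members in that order, and PARP9, DTX3L and TRIM22 were all called lower with simvastatin against DMSO. Of the fold changes of single members under alternatives, 1670 stayed called or stayed not called, 81 lost the call and 19 gained it. None changed sign where either fit called the member. Changes of sign in members called in neither fit were not counted, and the cause of the changes was not tested. The median of all genes stayed within 0.075 log2 units of 0. Members near 0.5 CPM rest on few counts.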
